A study of Mus musculus with 42 samples.

Results

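A group of 8 genes that mark the formative and primed epiblast was followed in mouse embryoid bodies, and in the embryonic stem cells (ESC) they were grown from, of AMPK double knockout and wild-type lines. The group was chosen by symbol, and 8 of its 9 symbols had a row among the 24225 genes of the deposited table. The ninth, Oct6, is another name of Pou3f1. The epiblast is the tissue of the embryo that gives rise to the body. Its cells leave naive pluripotency, the state of ESC kept in leukaemia inhibitory factor (LIF), pass through a formative state and become primed for the germ layers. Fgf5, Otx2 and Pou3f1 are switched on as naive cells make this step, and all 3 are then restricted or lost as the germ layers form.

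The study compared 2 AMPK double knockout lines (DKO; K1 and K3) with 2 wild-type lines (WT; W1 and W2), all on a C57Bl/6 background. The labels name the knockout only as DKO, and how its alleles were made was not given in the sources used here. AMPK is a kinase that senses low cellular energy, and its catalytic subunits are encoded by Prkaa1 and Prkaa2. The lines were sampled as ESC and as embryoid bodies, aggregates that differentiate after LIF is withdrawn, on days 2, 4, 8 and 12, in 2.5 mM glucose (LG) or 25 mM glucose (HG). The ESC had been kept on irradiated DR4 feeder cells, which were depleted before collection. Messenger RNA was sequenced in 42 libraries, 20 labelled DKO and 22 labelled WT, and values are RPKM, reads per length of transcript scaled to the mapped reads of the library. Each genotype rests on 2 lines, so p-values measure the spread between these lines and samples only.

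Part of the column headings went against the libraries under them. Line markers (Y-linked and imprinted RNAs) or Txnip, a transcript induced by glucose, contradicted the label of 18 of the 42 libraries. The line markers contradicted 15 labels, Txnip contradicted 8, and 5 labels were contradicted by both. The results below rest on the other 24 libraries, 11 DKO and 13 WT, called label-matched, and results with all 42 libraries as labelled stand beside them. Prkaa2 lay between 0.019 and 0.959 RPKM in the label-matched DKO libraries, against 1.32 to 22.3 RPKM in the WT libraries. Over all 42 libraries, Prkaa2 was under 1 RPKM in 15 of the 20 labelled DKO and in 4 of the 22 labelled WT. The as-labelled groups thus mix libraries on both sides of 1 RPKM, which limits what their counts show about genotype. Prkaa1 lay between 4.01 and 6.63 RPKM in the DKO libraries, against 6.53 to 11.2 RPKM in the WT libraries, and whether its reads fall outside a deleted part was not tested. The label-matched set held W1 alone for WT in LG on days 8 and 12, and K3 alone for DKO in HG on days 8 and 12. It held no comparison of genotypes in HG before day 8. Its only ESC library was that of K1, which no marker contradicted. The line markers and Txnip do not check the day of any library, that of K1 included. Depth, read from the steps of low RPKM values, ran from 10500000 to 25500000 reads per library, with a median of 15425000. Bulk RNA cannot tell fewer cells of a type from less RNA per cell.

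The 8 genes lie on 5 chromosomes (mm10). Fgf5, a secreted fibroblast growth factor, is on chromosome 5 (98254184 to 98277033, plus strand). Otx2, a homeodomain factor of the anterior epiblast and forebrain, is on chromosome 14 (48657677 to 48665109, minus strand), as are Zic2, a zinc finger factor (122475384 to 122480328, plus strand), and Sall2, a zinc finger factor of the spalt family (52311177 to 52316323, minus strand). Pou3f1, a POU domain factor, is on chromosome 4 (124657646 to 124660655, plus strand). Utf1, a chromatin-bound factor of pluripotent cells, is on chromosome 7 (139943856 to 139945112, plus strand). Lin28a is on chromosome 4 (134003330 to 134018816, minus strand) and Lin28b on chromosome 10 (45376619 to 45470201, minus strand). Both encode RNA-binding proteins that block the maturation of let-7 microRNAs. All 8 passed the filter on low values, and the kit did not mark strand, so reads of antisense partners cannot be told apart from theirs.

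RefSeq promoter windows (GRCm38.p6, 250 bases before to 50 bases after the start of the transcript) were found for 6 of the 8 genes and began at the same transcript starts as the table's rows. Those of Fgf5 and Otx2, which stood more than 10-fold higher in DKO than in WT in HG on day 12, and of Lin28b, which was higher in DKO on days 8 and 12, with its paralog Lin28a, are shown 5′ to 3′ on the gene's strand. Capitals mark matches, on either strand, to CACGTG (the E-box core of the CLEAR element that Tfeb binds), GGGCGG (GC box), TAATCC (a site of Otx factors) or ATGCAAAT (the octamer of POU factors), which do not overlap one another in these windows.
Fgf5, chr5:98253934-98254233, plus strand: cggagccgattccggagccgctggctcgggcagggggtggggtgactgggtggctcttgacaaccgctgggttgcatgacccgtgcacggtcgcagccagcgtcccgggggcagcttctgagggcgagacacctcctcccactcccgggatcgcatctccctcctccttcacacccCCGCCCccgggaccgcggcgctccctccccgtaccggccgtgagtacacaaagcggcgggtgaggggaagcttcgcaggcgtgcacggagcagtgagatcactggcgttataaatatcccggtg
Otx2, chr14:48665060-48665359, minus strand: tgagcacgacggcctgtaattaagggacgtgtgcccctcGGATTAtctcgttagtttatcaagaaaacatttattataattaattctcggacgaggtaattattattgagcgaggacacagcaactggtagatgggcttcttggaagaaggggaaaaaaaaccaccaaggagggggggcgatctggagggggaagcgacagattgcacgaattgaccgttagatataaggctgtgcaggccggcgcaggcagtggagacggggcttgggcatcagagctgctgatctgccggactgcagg
Lin28a, chr4:134018767-134019066, minus strand: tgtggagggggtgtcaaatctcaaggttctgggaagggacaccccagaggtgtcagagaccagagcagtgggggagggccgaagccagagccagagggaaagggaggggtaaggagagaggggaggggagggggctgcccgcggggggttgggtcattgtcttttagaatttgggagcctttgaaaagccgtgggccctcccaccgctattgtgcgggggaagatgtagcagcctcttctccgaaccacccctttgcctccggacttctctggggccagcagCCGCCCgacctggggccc
Lin28b, chr10:45470152-45470451, minus strand: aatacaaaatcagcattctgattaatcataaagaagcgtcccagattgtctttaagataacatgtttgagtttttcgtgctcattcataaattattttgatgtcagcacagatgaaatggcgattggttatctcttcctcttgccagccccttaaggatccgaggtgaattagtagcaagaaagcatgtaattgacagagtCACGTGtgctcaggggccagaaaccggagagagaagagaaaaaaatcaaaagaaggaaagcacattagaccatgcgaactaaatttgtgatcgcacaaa

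The Lin28b window held 1 CACGTG, which 7.15% of all 32851 promoter windows hold. The Otx2 window held 1 TAATCC, against 7.06% of all windows. GGGCGG stood once each in the Fgf5 and Lin28a windows and at 4 places in that of Utf1, against 35.7% of all windows. ATGCAAAT was in none of the 6 windows, against 1.74% of all. The windows differed in base composition, with 68.3% G and C in Fgf5, 63.3% in Lin28a, 51.0% in Otx2 and 39.0% in Lin28b. A match is a string of letters and does not show binding.

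Lin28a and Lin28b are also targets of the microRNAs whose maturation they block. All 11 let-7 family genes with a 5p entry in the RefSeq table share 1 seed (bases 2 to 8, capitals), shown for let-7a beside the sites in both transcripts.
let-7a-5p: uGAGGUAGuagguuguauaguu
Lin28a site 1, chr4:134005189-134005210, minus strand: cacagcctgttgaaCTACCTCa
Lin28a site 2, chr4:134004551-134004572, minus strand: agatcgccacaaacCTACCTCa
Lin28b site 1, chr10:45381022-45381043, minus strand: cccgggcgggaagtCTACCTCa

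The capitals in the sites mark CTACCTC, the complement of the seed, in 3′ untranslated regions of GENCODE vM21 (GRCm38). The Lin28a transcript held 2 such sites and the Lin28b transcript 4, of which the first is shown, and 0 stood in the other 6 genes. Of 21028 mouse genes with an annotated 3′ untranslated region, 9.02% held the letters.

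In LG, Fgf5 and Sall2 rose from day 2 to day 4 in both genotypes. Fgf5 was at 7.80 RPKM in K1 and 6.74 RPKM in K3 on day 2, against 5.87 RPKM in W1 and 7.0 RPKM in W2. On day 4 it stood at 28.04 RPKM in K1 and 40.8 RPKM in K3, against 33.1 RPKM in W1 and 32.2 RPKM in W2. The genotypes overlapped on both days. Between days 2 and 4, Fgf5 rose by 2.08 ± 0.40 in DKO (log2 of RPKM + 1, ± SE; adjusted p = 0.0203 in limma) and by 2.18 ± 0.40 in WT (adjusted p = 0.00656). Sall2 also rose, by 1.63 ± 0.26 in DKO (adjusted p = 0.0111) and by 1.42 ± 0.26 in WT (adjusted p = 0.00702). Lin28a rose in WT alone past the threshold (0.64 ± 0.17, adjusted p = 0.0371; DKO 0.34 ± 0.17, adjusted p = 0.33), but the difference between genotypes in that change did not pass (adjusted p = 1). Thus 2 of 8 genes rose in DKO, where 2.24% of all 14672 genes tested rose and 3.03% changed, and 3 of 8 rose in WT, where 6.41% rose and 8.64% changed. With the line as a block Lin28b passed in WT too (0.56, adjusted p = 0.0422). As labelled the count was 0 in both genotypes. Without W1, or without W2, it was also 0 in both, and in DKO it was 1 without K1 and 0 without K3.

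**Figure D1:**
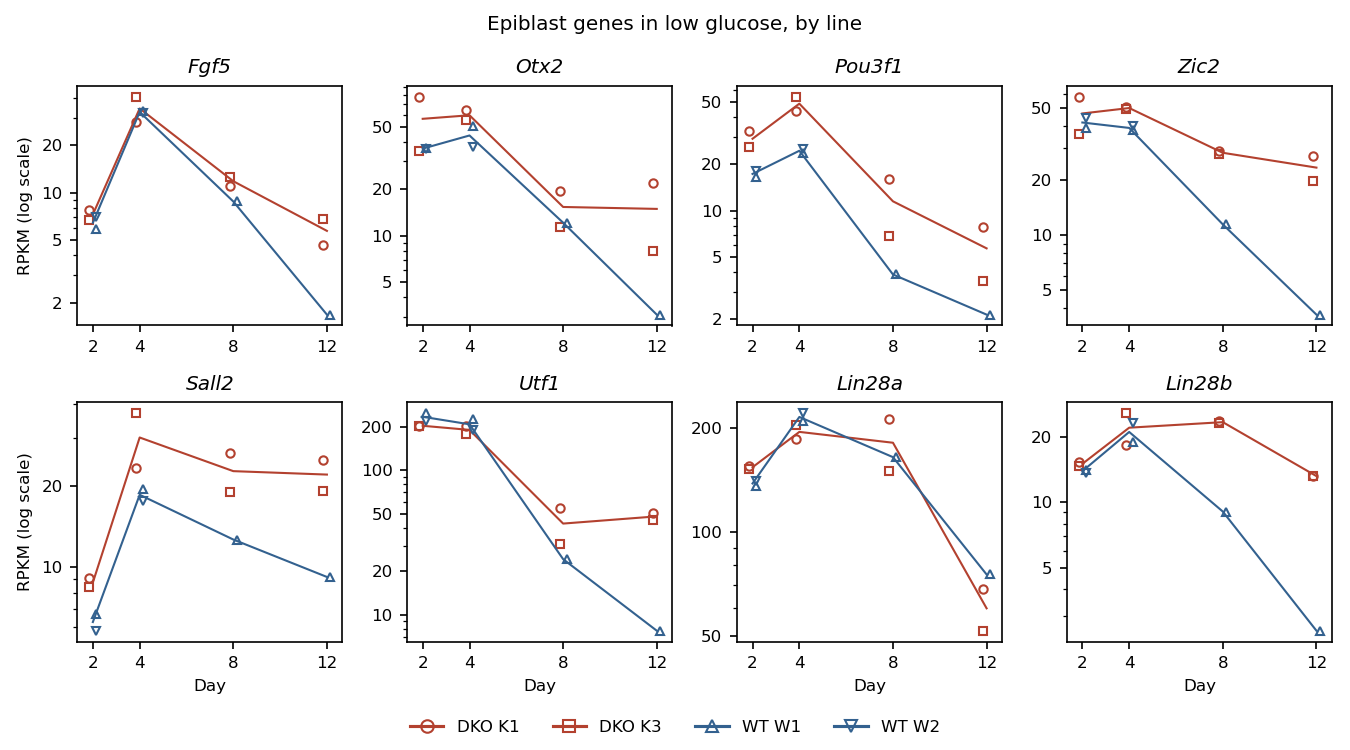
RPKM (log axis) of the 8 epiblast genes on days 2, 4, 8 and 12 in low glucose. Each symbol is a label-matched line, red for DKO (K1, K3) and blue for WT (W1, W2), and lines join group means. On day 12 both DKO symbols lie above that of W1 for 7 of 8 genes, as for 49.2% of all genes tested, and for Lin28a both lie below it, as for 30.9%.

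Between genotypes in LG, 0 of 8 members passed on day 2, as against 0.15% of all genes, and 0 of 8 on day 4, as against 1.67% of all genes. With 2 lines of each genotype, this does not show equal levels. The largest ratio of the DKO mean to the WT mean on day 2 was 1.69, for Pou3f1. It was at 32.6 RPKM in K1 and 25.7 RPKM in K3, against 16.4 RPKM in W1 and 18.2 RPKM in W2. The number of members with an unadjusted p under 0.05 was 0 on day 2 and 2 on day 4. The largest difference on day 4 was that of Pou3f1, at 43.9 RPKM in K1 and 54.3 RPKM in K3, against 23.7 RPKM in W1 and 25.1 RPKM in W2. The Pou3f1 change of 0.97 ± 0.36 missed the threshold (adjusted p = 0.204 in limma), and it was 1.12 without K1. Sall2 was 0.64 ± 0.26 higher (adjusted p = 0.267) and did not pass. Its levels were 23.1 RPKM in K1 and 37.05 RPKM in K3, against 19.4 RPKM in W1 and 17.6 RPKM in W2.

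From day 4 to day 12 the genes fell in both genotypes. In DKO 7 of 8 fell, as 17.5% of all genes did (42.4% changed), and in WT all 8 fell, as 23.6% of all genes did (44.8% changed). The fall was smaller in DKO for Utf1, Lin28b and Zic2, by the test of the difference between genotypes in this change (2.61, 1.95 and 2.02, with adjusted p of 0.00401, 0.00123 and 0.00443), so 3 of 8 members passed, against 8.55% of all genes called higher and 12.1% in either direction. These 3 calls were lost without W2 (adjusted p of 0.075, 0.0808 and 0.126) and as labelled, and Otx2 passed with the line as a block (1.39, adjusted p = 0.0318) and without K3 (1.93, adjusted p = 0.00791). The day 12 level of Utf1 was 25.2% of its day 4 level in DKO and 3.73% in WT. For Zic2 the day 12 level was 47.02% of day 4 in DKO and 9.40% in WT, and for Lin28b it was 59.8% in DKO and 12.1% in WT. Pou3f1 fell to 11.6% of day 4 in DKO and 8.74% in WT. Lin28a fell to 30.8% of day 4 in DKO and 34.96% in WT. Sall2 was the member that did not pass in DKO (−0.41 ± 0.26, adjusted p = 0.229). It stood at 73.0% of day 4 in DKO and 49.7% in WT, where it fell (−0.93 ± 0.32, adjusted p = 0.0333; 0.121 without W2 and 0.0533 with no filter). The fall of Lin28b in DKO was lost without K3 (−0.45, adjusted p = 0.118). As labelled, 1 member fell in DKO, where 4.08% of all genes changed, and 0 in WT, where 0.0% did.

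The difference between genotypes in the change from day 2 to day 12 was tested itself and passed for 3 of 8 genes, against 12.3% of all genes called higher and 18.4% in either direction. These were Utf1 (2.69 ± 0.43, adjusted p = 0.00277), Lin28b (1.89 ± 0.25, adjusted p = 0.00128) and Zic2 (2.25 ± 0.34, adjusted p = 0.00219), each with the smaller fall in DKO. With the line as a block, Otx2 passed too (1.31, adjusted p = 0.0302). From day 2 to day 8 only Lin28b among the members passed (1.17, adjusted p = 0.0431), against 1.14% of all genes called higher and 1.88% in either direction. That call was lost without W2 (adjusted p = 0.363), without K3 (0.0718), at a pseudocount of 0.1 (0.0574) and with median-of-ratios scaling (0.0592), and Zic2 passed with the line as a block (1.00, adjusted p = 0.0458) and without K1 (1.42, adjusted p = 0.0273). From day 2 to day 4 none of the members passed (adjusted p = 1 for each, and 0 at an unadjusted p under 0.05), and 0.0% of all genes did. Without W2 the 3 calls from day 2 to day 12 were lost (adjusted p of 0.0615 for Utf1, 0.064 for Lin28b and 0.0807 for Zic2), without K1 the count was 5, with Otx2 (1.19, adjusted p = 0.0195) and Lin28a, without K3 Otx2 was added (1.38, adjusted p = 0.0177), and as labelled it was 0, against 0.0335% of all genes.

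On day 8 in LG, Lin28b and Zic2 were higher in DKO, 2 of 8 members against 18.9% of all genes called in either direction and 11.0% called higher. Lin28b was at 23.7 RPKM in K1 and 23.3 RPKM in K3, against 9.08 RPKM in W1 (1.28 ± 0.20, adjusted p = 0.00258). Zic2 was at 28.9 RPKM in K1 and 27.9 RPKM in K3, against 11.5 RPKM in W1 (1.24 ± 0.27, adjusted p = 0.0102). Both DKO lines were more than 2-fold above W1 for both genes. Pou3f1 was at 16.1 RPKM in K1 and 6.87 RPKM in K3, against 3.87 RPKM in W1, and did not pass (1.25 ± 0.43, adjusted p = 0.0623). With the line as a block Pou3f1 (1.16, adjusted p = 0.0404) and Sall2 (0.94, adjusted p = 0.0396) passed, so that 4 members were higher. Pou3f1 also passed without K3 (1.81, adjusted p = 0.00664) and with quantile scaling (adjusted p = 0.0425). Without W2 Zic2 was lost (adjusted p = 0.0795).

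On day 12 in LG, 5 of 8 members were higher in DKO and 0 were lower, against 22.3% of all genes called higher and 35.3% called in either direction. The median change of the 8 members was 1.55, against 0.158 for all genes tested. Utf1 was at 50.5 RPKM in K1 and 45.2 RPKM in K3, against 7.73 RPKM in W1 (2.48 ± 0.33, adjusted p = 0.000331). Zic2 and Lin28b were also higher in both DKO lines than in W1. Zic2 was at 27.3 RPKM in K1 and 19.8 RPKM in K3, against 3.66 RPKM in W1 (2.38 ± 0.27, adjusted p = 0.000119). Lin28b was at 13.2 RPKM in K1 and 13.3 RPKM in K3, against 2.57 RPKM in W1 (2.00 ± 0.20, adjusted p = 5.91e-05).

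Otx2 and Sall2 were the other 2 members that passed on that day. Otx2 was at 21.7 RPKM in K1 and 7.96 RPKM in K3, against 3.1 RPKM in W1 (1.80 ± 0.50, adjusted p = 0.0162). Sall2 was at 24.9 RPKM in K1 and 19.04 RPKM in K3, against 9.20 RPKM in W1 (1.16 ± 0.32, adjusted p = 0.0158). Both calls were lost without W2, with an adjusted p of 0.107 for Otx2 and 0.0579 for Sall2, and W2 has no value in this condition. Fgf5, at 4.66 RPKM in K1 and 6.79 RPKM in K3, against 1.68 RPKM in W1, was just short of the threshold (1.31 ± 0.49, adjusted p = 0.0545), and passed without W2 (adjusted p = 0.0332) and with a filter of 5 RPKM (adjusted p = 0.0495). Pou3f1, at 7.90 RPKM in K1 and 3.52 RPKM in K3, against 2.13 RPKM in W1, did not pass (1.02 ± 0.43, adjusted p = 0.0873), but did without K3 (1.51, adjusted p = 0.00424). Lin28a did not pass either (−0.33 ± 0.21, adjusted p = 0.228), with both DKO lines below W1, but passed without K1 (−0.53, adjusted p = 0.0257). As labelled, where the heading W2 stands over a library with the markers of another line, 0 of 8 members passed on days 8 and 12 in LG, against 0.349% and 3.82% of all genes, and the estimates of Otx2, Utf1 and Pou3f1 turned negative on both days.

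**Figure D2:**
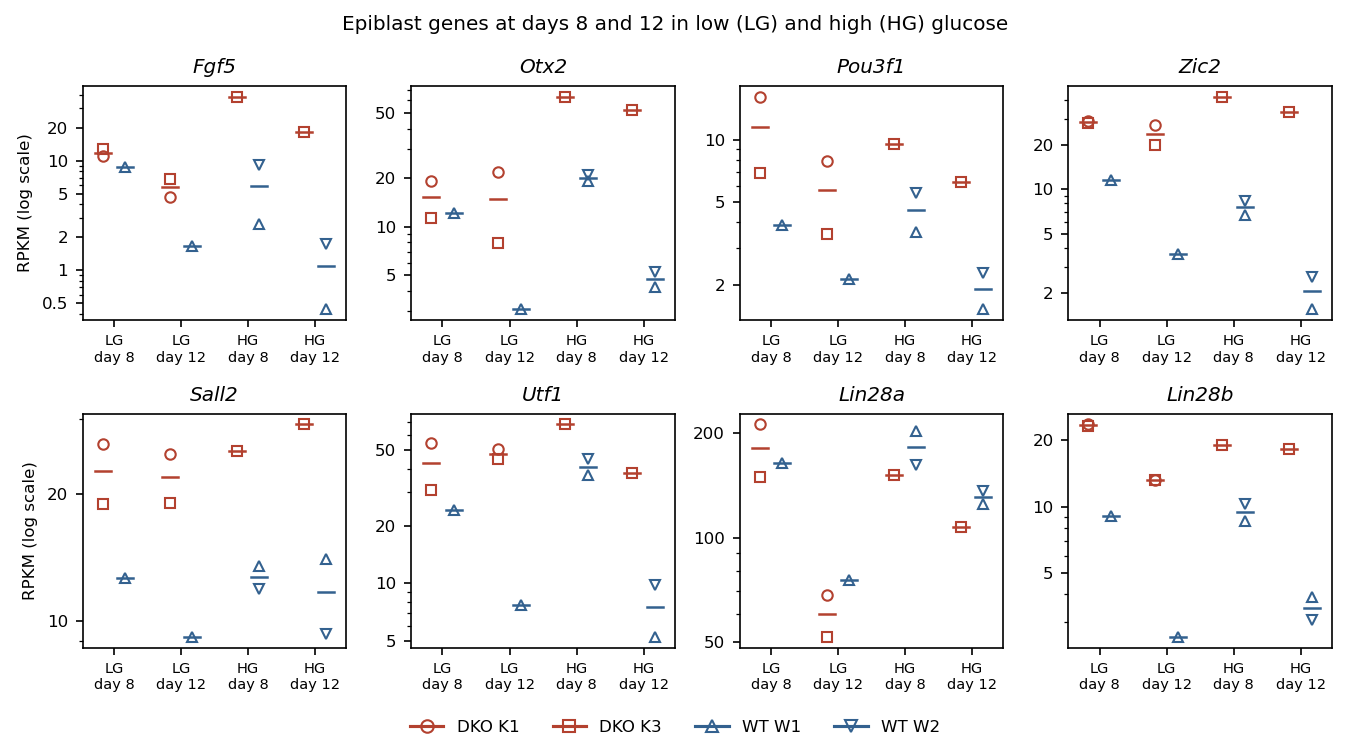
RPKM (log axis) of the 8 genes on days 8 and 12, in low and high glucose, with DKO lines (red) left of WT lines (blue). Symbols are label-matched lines and bars are group means. On day 12 the DKO symbols lie above the WT symbols in both glucose levels for 7 genes. In high glucose, with 1 DKO and 2 WT symbols, this held for 51.5% of all genes tested, and the reverse, as for Lin28a, for 38.2%.

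In HG the difference on day 12 covered 7 of 8 members, all higher in DKO, against 20.2% of all genes called higher and 32.2% in either direction. The median change of the members was 2.18, against 0.101 for all genes. Fgf5 was at 18.3 RPKM in K3, against 0.443 RPKM in W1 and 1.75 RPKM in W2 (3.27 ± 0.49, adjusted p = 0.00089). Otx2 was at 52.7 RPKM in K3, against 4.24 RPKM in W1 and 5.26 RPKM in W2 (3.23 ± 0.50, adjusted p = 0.00109). Zic2 was at 33.1 RPKM in K3, against 1.55 RPKM in W1 and 2.55 RPKM in W2 (3.50 ± 0.27, adjusted p = 2.19e-05). For these 3 genes K3 stood more than 10-fold above the mean of the WT lines, with ratios of 16.7, 11.1 and 16.2.

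Utf1 was at 38.1 RPKM in K3 on the same day, against 5.24 RPKM in W1 and 9.86 RPKM in W2 (2.25 ± 0.33, adjusted p = 0.000878). Lin28b was at 18.2 RPKM in K3, against 3.89 RPKM in W1 and 3.07 RPKM in W2 (2.11 ± 0.20, adjusted p = 7.99e-05). Sall2 and Pou3f1 differed less, by 1.27 ± 0.32 (adjusted p = 0.0119) and 1.34 ± 0.43 (adjusted p = 0.0344, and 0.0535 with no filter). Lin28a, at 107.6 RPKM in K3, against 125.0 RPKM in W1 and 136.7 RPKM in W2, did not pass (−0.28 ± 0.21, adjusted p = 0.324). The group K3 stands for is 1 line, assumed to vary like the others. Without W1, or without W2, 4 of the 7 calls passed, and those of Otx2, Pou3f1 and Sall2 did not (adjusted p of 0.0666, 0.275 and 0.0693 without W1, and of 0.064, 0.184 and 0.162 without W2). As labelled, where a library headed K1 with the markers of K3 joins the DKO group, only Zic2 among the members passed (3.77, adjusted p = 0.0453), against 3.58% of all genes, and Fgf5 (3.69, adjusted p = 0.0505) and Lin28b (2.04, adjusted p = 0.0572) came next.

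On day 8 in HG, 4 of 8 members were higher in DKO, against 7.89% of all genes called higher and 15.3% in either direction. Fgf5 was at 38.4 RPKM in K3, against 2.64 RPKM in W1 and 9.10 RPKM in W2 (2.70 ± 0.49, adjusted p = 0.00739). Zic2 was at 42.2 RPKM in K3, against 6.74 RPKM in W1 and 8.30 RPKM in W2 (2.35 ± 0.27, adjusted p = 0.00146). Otx2 was at 63.4 RPKM in K3, against 19.01 RPKM in W1 and 20.8 RPKM in W2, and only just passed (1.62 ± 0.50, adjusted p = 0.0488, and between 0.0511 and 0.0743 with a smaller pseudocount, no filter, no trend or the earlier-listed columns). Lin28b was the fourth (0.94 ± 0.20, adjusted p = 0.012). Without W1 none of the 4 passed (adjusted p of 0.0624 for Fgf5, 0.0523 for Zic2, 0.361 for Otx2 and 0.21 for Lin28b), without W2 only Fgf5 did (0.0532 for Zic2, 0.284 for Otx2 and 0.123 for Lin28b), and as labelled none did, against 0.0134% of all genes. With the line as a block Pou3f1 (1.21, adjusted p = 0.0445) and Sall2 (0.97, adjusted p = 0.0443) passed too, as they did without K1 (adjusted p of 0.0201 and 0.0375).

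In WT embryoid bodies in HG the genes had already dropped by day 8. From day 4 to day 8, 7 of 8 fell, as 14.1% of all genes did (29.4% changed), and the exception was Lin28a (−0.14 ± 0.17, adjusted p = 0.579). Fgf5 averaged 62.1 ± 5.21 RPKM on day 4, 5.87 ± 4.57 RPKM on day 8 and 1.10 ± 0.925 RPKM on day 12 (SD, n = 2 lines). The contradicted columns under the same day 4 headings, left out here, had Fgf5 at 2.66 RPKM (headed W1) and 4.015 RPKM (headed W2). Between days 8 and 12, 5 of 8 fell further, as 3.59% of all genes did (6.18% changed), namely Fgf5, Otx2, Utf1, Lin28b and Zic2. In DKO in HG, with the K3 library alone on each day, 0 members passed between those days (0 at an unadjusted p under 0.05), against 0.245% of all genes. The difference between genotypes in this change passed for 0 of 8 in limma (4 at an unadjusted p under 0.05), against 0.129% of all genes. Without W1 or W2 the WT count from day 4 to day 8 was 3, and that from day 8 to day 12 was 0. Without K1, or without K3, Fgf5 was lost from day 8 to day 12 (adjusted p of 0.0541 and 0.0536) and Pou3f1 and Lin28a passed.

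**Figure D3:**
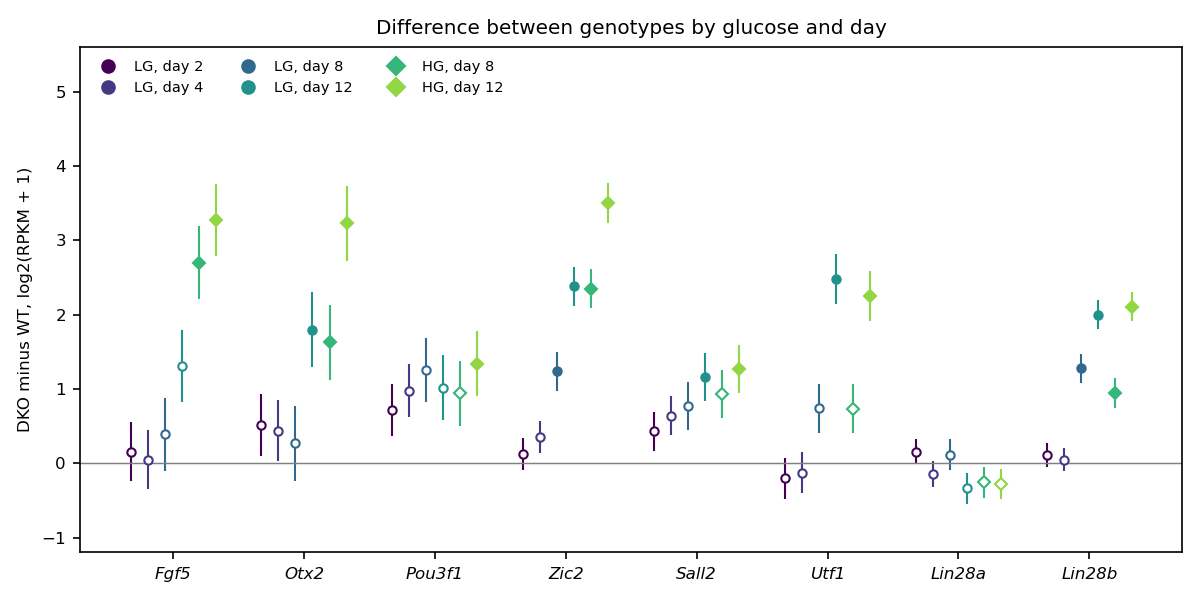
Difference between DKO and WT, log2(RPKM + 1), for each gene in the 6 conditions with label-matched libraries of both genotypes. Points are limma estimates with standard errors, circles for low and diamonds for high glucose, and filled points passed an adjusted p of 0.05. Filled points appear on days 8 and 12 alone, and Lin28a has none.

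Lin28a and Lin28b encode paralogous proteins, and the ratio of their transcripts is given here as a description. On day 2 in LG the RPKM of Lin28a was 10.1 times that of Lin28b in K1 and 10.3 times in K3, against 9.54 times in W1 and 10.3 times in W2. On day 8 the ratio was 8.98 in K1 and 6.43 in K3, against 18.1 in W1. On day 12 it was 5.18 in K1 and 3.89 in K3, against 29.3 in W1. In HG on day 12 it was 5.91 in K3, against 32.1 in W1 and 44.5 in W2. In LG the ratio on day 12 thus lay under its day 2 level in both DKO lines and above it in W1. W2 had no label-matched library in LG on day 12. The contradicted one under that heading had a ratio of 9.38, with the line markers of K1, Prkaa2 at 0.04 RPKM and Txnip at 190.3 RPKM. It is thus no measure of WT in LG. Of the 2 genes, only Lin28b passed the test of a difference between genotypes in the change from day 2 to day 12 (Lin28a −0.49 ± 0.27, adjusted p = 0.217, and −0.67, adjusted p = 0.0429, without K1). The ratio was at 7.9 to 10.1 in DKO and 9.5 to 11.0 in WT on day 4 in LG, and no test was made on the ratio itself. In all 42 libraries as labelled it ran from 3.89 to 53.4.

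**Figure D4:**
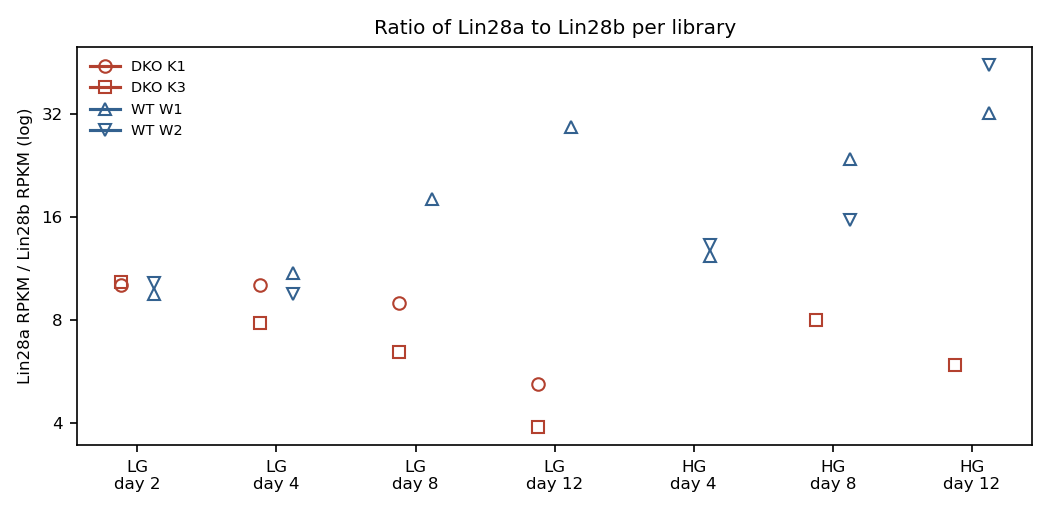
Ratio of Lin28a to Lin28b (RPKM over RPKM, log axis) in each label-matched line by glucose and day, DKO in red and WT in blue. The ratio starts near 10 in all lines on day 2, and on day 12 lies between 3.89 and 5.91 in DKO and between 29.3 and 44.5 in WT.

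Low and high glucose were compared within a genotype, and no member passed in any of these comparisons, while 12.2% of all genes did in WT on day 4, 3.31% in WT on day 8, 3.56% in WT on day 12, 1.75% in DKO on day 8 and 2.1% in DKO on day 12. The number of members with an unadjusted p under 0.05 in these 5 comparisons was 2, 0, 2, 2 and 4. The largest estimate was for Otx2 in DKO on day 8, with 19.2 RPKM in K1 and 11.3 RPKM in K3 in LG, against 63.4 RPKM in K3 in HG (−2.03 ± 0.50, adjusted p = 0.0722). On day 12 it was at 21.7 RPKM in K1 and 7.96 RPKM in K3 in LG, against 52.7 RPKM in K3 in HG (−1.91 ± 0.50, adjusted p = 0.0818). With the line as a block, which sets K3 against K3, Otx2 passed on day 8 (−2.46, adjusted p = 0.0036) and on day 12 (−2.34, adjusted p = 0.00357). Lin28a passed on day 12 under the block both in DKO (−0.95, adjusted p = 0.0298) and in WT (−0.80, adjusted p = 0.0387), lower in LG. Without K1 the same calls were made, with adjusted p of 0.00656 and 0.00334 for Otx2 in DKO and of 0.0167 (DKO) and 0.0154 (WT) for Lin28a, and that of Lin28a in WT also without K3 (0.0153). Otx2 was lower in LG in WT on day 4 (−0.70) without K1 (adjusted p = 0.017) and without K3 (adjusted p = 0.0166). Fgf5 in K3 was at 12.7 RPKM in LG on day 8, against 38.4 RPKM in HG, and at 6.79 RPKM in LG on day 12, against 18.3 RPKM in HG. In W1 it was at 8.80 RPKM in LG on day 8, against 2.64 RPKM in HG. The difference between genotypes in the effect of glucose, added after the data were seen, passed for no member (Fgf5 on day 8, −2.31 ± 0.69, adjusted p = 0.386; 2 members at an unadjusted p under 0.05 on each day), against 0.102% of all genes on day 8 and 0.375% on day 12.

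The order of the levels over the 13 embryoid body conditions differed by gene. Fgf5 was highest in WT in HG on day 4 (62.1 ± 5.21 RPKM), above DKO in HG on day 8 (38.4 RPKM, K3), which did not differ from DKO in LG on day 4 (34.4 ± 9.01 RPKM) beyond the spread of the lines. That rank rests on the label-matched columns, since the contradicted columns headed W1 and W2 in HG on day 4 had Fgf5 at 2.66 RPKM and 4.015 RPKM. Otx2 and Zic2 were also highest in WT in HG on day 4, by their means, at 71.4 ± 5.65 RPKM and 51.7 ± 2.37 RPKM, but K1 in LG on day 2 was above these means for both (77.9 RPKM of Otx2 and 57.7 RPKM of Zic2), and Zic2 in DKO in LG on day 4 overlapped the WT lines. Utf1 was highest in WT in LG on day 2 (233.9 ± 20.5 RPKM), which overlapped WT in HG on day 4 (220.5 ± 43.9 RPKM). Pou3f1 and Sall2 were highest in DKO in LG on day 4 (49.1 ± 7.37 RPKM and 30.1 ± 9.85 RPKM), and Lin28b by its mean in DKO in LG on day 8 (23.5 ± 0.274 RPKM). That order of Lin28b and Sall2 is within the spread of the lines, since Lin28b in DKO on day 4 and Sall2 in DKO in HG on day 12 overlapped these levels. Fgf5, Otx2, Utf1, Pou3f1, Lin28b and Zic2 had their 2 lowest levels in WT on day 12 in the 2 glucose levels. Sall2 stood apart, with its lowest levels on day 2 (8.77 ± 0.473 RPKM in DKO and 6.27 ± 0.629 RPKM in WT, both in LG).

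The other genes of the formative and primed epiblast list, 22 without the members, gave 13 higher and 0 lower in DKO on day 12 in LG, with a median change of 1.15, beside the median of 0.158 of all genes, of which 3279 were higher and 1905 lower. The 4 with the smallest p were Lef1, a factor of Wnt signalling (3.59 ± 0.37, adjusted p = 6.76e-05), Dnmt3b, a DNA methyltransferase (2.36 ± 0.28, adjusted p = 0.000172), the kinase gene Pim2 (2.16 ± 0.28, adjusted p = 0.000244) and Tead2, a factor of Hippo signalling (1.19 ± 0.16, adjusted p = 0.000306). In HG on day 12 the list gave 12 higher and 2 lower, with 2969 higher and 1761 lower of all genes, and on day 2 in LG 0 in either direction. Naive pluripotency genes gave 12 higher and 1 lower of 18 on day 12 in LG (median 1.45), led by Nanog (3.59 ± 0.20, adjusted p = 2.34e-06), Dppa3, Spp1 and Esrrb. General pluripotency genes gave 7 higher and 0 lower of 9 (median 2.08), led by Trim28, Pou5f1, Dppa4 and Sox2. Pou5f1, which encodes Oct4, was at 133.6 RPKM in K1 and 98.7 RPKM in K3, against 16.2 RPKM in W1. In HG on day 12 the naive list gave 9 higher and 2 lower of 18, and the general list 7 higher and 0 lower of 9.

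Of 20 genes of the Lin28 and let-7 pathway other than the members, 10 were higher and 1 lower in DKO on day 12 in LG (median 0.514), and 9 were higher and 1 lower in HG. Beside this and the lists below, 22.3% of all genes were called higher and 35.3% in either direction in LG. In HG it was 20.2% and 32.2%. Those with the smallest p were Hmga1 (1.69 ± 0.17, adjusted p = 6.62e-05), Mycn (1.61 ± 0.21, adjusted p = 0.000308), Hmga2 (2.58 ± 0.43, adjusted p = 0.00117) and Xpo5 (0.72 ± 0.14, adjusted p = 0.00263). Hmga2 and Mycn are known let-7 targets, and Xpo5 exports microRNA precursors from the nucleus. The let-7 RNAs themselves are too short for this kind of library, and their levels were not used here. Of 17 genes of FGF signalling other than Fgf5, 6 were higher and 2 lower on day 12 in LG (median 0.755), led by the receptor gene Fgfr1 (1.78 ± 0.21, adjusted p = 0.000178), the ERK phosphatase gene Dusp6 (1.42 ± 0.18, adjusted p = 0.000242), Fgf4 and Spred1. In HG it was 7 higher and 2 lower. Of 12 paralogs of the members tested, 5 were higher and 1 lower in LG, and Sall3, Pou5f1 and Fgf4 were among those with the smallest p.

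Several members are also used by other cell types, so markers of those types were measured beside them. The 15 neural progenitor genes tested gave 5 higher and 0 lower in DKO on day 12 in LG, where 22.3% of all genes were called higher. In HG on day 12 they gave 12 higher and 0 lower, where 20.2% of all genes were called higher. The summed RPKM of the 16 neural genes was 211.3 in K1 and 88.7 in K3, against 49.2 in W1, on day 12 in LG. In HG on day 12 the sum was 94.8 in K3, against 16.5 in W1 and 16.3 in W2. K1 was the DKO line with the higher neural sum in LG on day 12. Among the members, the difference of K1 from K3 ran from −0.46 for Fgf5 to 1.34 for Otx2 in log2(RPKM + 1). The neural factor gene Sox1 was at 7.77 RPKM in K1 and 0.921 RPKM in K3, against 1.61 RPKM in W1. The part of neural cells in the levels of the members was not tested.

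Anterior visceral endoderm, which also expresses Otx2, gave 0 of 6 genes in either direction on day 12 in LG, and Dkk1, Lefty1, Gsc and Lhx1 had its smallest p. In HG it gave 4 higher and 0 lower, and the sum of the 6 was 53.8 RPKM in K3, against 12.3 in W1 and 11.1 in W2. Visceral and extraembryonic endoderm genes went the other way, with 0 higher and 9 lower of 16 in LG on day 12 (median −3.19). Their sum was 295.7 RPKM in K1 and 193.6 RPKM in K3, against 3139 RPKM in W1. In HG on day 12 it was 984.3 RPKM in K3, against 3433 RPKM in W1 and 5569 RPKM in W2, with 0 higher and 1 lower. Primitive streak and mesoderm genes gave 5 higher and 0 lower of 13 in LG, led by Prrx1, Isl1, Twist1 and T. Of all genes, 22.3% were called higher and 35.3% in either direction in LG on day 12, and 20.2% and 32.2% in HG. Feeder and fibroblast genes gave 2 higher and 4 lower of 13 in LG, led by Col1a2, Col1a1, Pdgfrb and Lum, and their sum on day 12 was 691.4 RPKM in K1 and 1044 RPKM in K3, against 1547 RPKM in W1. The part of these cell types in the levels of the members was not tested.

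Over the 23 label-matched values, Fgf5, Otx2, Pou3f1, Lin28b, Zic2 and Utf1 had a Pearson r between 0.879 and 0.921 with the mean standardised profile of the 8 members, while Lin28a had 0.612 and Sall2 0.524. Among other genes averaging at least 1 RPKM, the profile was most like that of Snrpn and Snurf (0.966 each), which share a locus and cannot be told apart by these reads, followed by Nudc, Fkbp4, Thop1, Exosc7, Eif1ax, Lyar, Stk4 and Lrp11 (0.958 to 0.946). The genes closest to single members were Larp7 and Rnf220 for Fgf5, Ap3s2 and Chga for Otx2, Nmnat2 and Dtd1 for Utf1, and Ddx46 and Dnajc27 for Zic2. They were Nr6a1 and Kpna6 for Lin28a, Rpusd2 and Psip1 for Lin28b, and Ppp1r26 and Nt5dc2 for Sall2, with r of 0.84 and above throughout. These values share lines and days and describe likeness only.

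The 18 contradicted libraries held the most extreme values of several members. Libraries labelled K3, W1 and W2 in HG on day 2 had Fgf5 at 0.071, 0.021 and 0.336 RPKM and Otx2 at 0.386, 0.81 and 1.90 RPKM. The 2 ESC libraries labelled WT differed, with Fgf5 at 67.9 RPKM under W1 and 12.1 RPKM under W2. Afp, of the visceral endoderm list, was at 2.36 RPKM under W1 and 240.2 RPKM under W2. The ESC library labelled K3 had 1.57 RPKM of Fgf5 and 5.26 RPKM of Utf1. It had the line markers of W2, with Prkaa2 at 18.1 RPKM, Txnip at 2.18 RPKM and Afp at 3043 RPKM. The ESC library labelled K1, which neither the line markers nor Txnip contradicts, had 41.3 RPKM of Fgf5 and 272.3 RPKM of Utf1. In K1 in LG on day 2, Fgf5 was at 7.80 RPKM. The summed RPKM of 18 naive pluripotency genes was 763.3 in the K1 ESC library, against 1627 in K1 in LG on day 2. Nanog was at 98.0 RPKM, against 84.0 RPKM. Whether the K1 library is of ESC was not tested. The library labelled W2 in LG on day 12 had 334.2 RPKM of Utf1, the highest in the table, against 7.73 RPKM in W1 under the same label. As labelled, 0 of 8 members passed between DKO and WT in ESC, in HG on day 2 and in HG on day 4, with 1, 0 and 0 at an unadjusted p under 0.05, and 0.0% of all genes were called in each. Prkaa2 went against labels in each of these comparisons. It was at 18.1 RPKM in ESC under K3, and on day 2 at 2.38 RPKM under K1 and 0.423 RPKM under W2. On day 4 it was at 5.01 and 3.39 RPKM under K1, and at 0.274 RPKM in a column under W2. By this gene the groups mix genotypes, so these counts cannot compare DKO with WT.

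**Figure D5:**
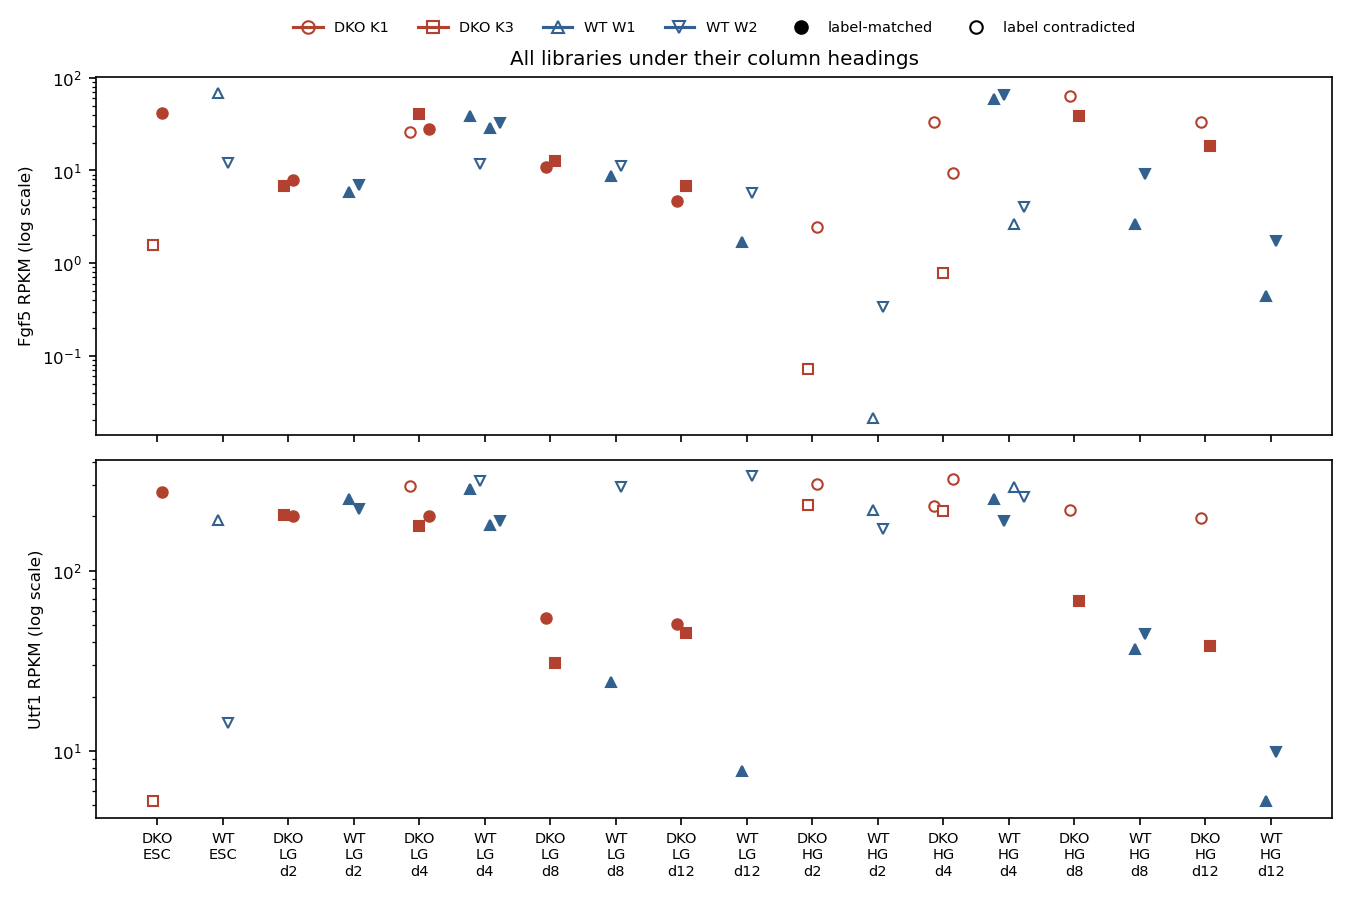
RPKM (log axis) of Fgf5 and Utf1 in all 42 libraries under their column headings, DKO (red) left of WT (blue) in each condition. Filled symbols are label-matched and open symbols are libraries whose label the line markers or Txnip contradict. Some open symbols differ widely from filled ones of the same label, as for Utf1 in WT in low glucose on day 12 (334.2 RPKM open, 7.73 RPKM filled). Others lie near them, as for Fgf5 in WT in low glucose on day 8 (11.3 RPKM open, 8.80 RPKM filled).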

How the data were processed

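The deposited table held RPKM values made by the authors, per the file headers, for 24225 genes in 42 libraries on mm10. Tools named without their roles in the submitters' processing notes were HOMER, STAR 2.4.0k, FastQC 0.11.2, R 3.1.1 and edgeR 3.6.8, with the builds mm10 and GRCm38. The table also gives each transcript's length, per the file headers. Low RPKM values, which step by whole reads of each library, gave the depths. RPKM values are not counts, and no count model was run.

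Headings alone assigned columns to lines. A total of 6 headings of day 4 stood over 2 columns each, whose log values were averaged to give 1 value for their line. Headings were compared with 5 Y-linked genes (summed RPKM, divided at 10, 30 and 65), 3 imprinted RNAs (divided at 10) and Txnip (5 RPKM). No library changed its group, and the 18 contradicted ones were left out of the main comparisons. These markers and the test were taken from an earlier analysis of the same files. The members, lists and this rule were chosen with earlier results of these data known.

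The limma package (3.58.1, R 4.3.3) was fitted to log2(RPKM + 1) with a mean-variance trend, over 14672 genes that reached 1 RPKM in 2 or more of 23 values (14 groups, 9 residual degrees of freedom). As labelled there were 36 values, 18 groups, 18 degrees of freedom and 14918 genes. Benjamini-Hochberg adjustment ran over all genes, with a threshold of 0.05. The pseudocount understates changes of low genes. The fit was tested on simulated data. Values of 1 line over days and glucose come from the same cell line and deviated together, with r between 0.166 and 0.64 for K1 and K3 and between 0.116 and 0.421 for W1 and W2 across genes, so the line is a pairing, and its block was an alternative. P-values of the fit without it treat these values as independent. An arm with 1 line was assumed to vary like the others. Named genes were every member, up to 4 genes of each list with the smallest p in DKO against WT in LG on day 12, and the genes most alike in profile, a few of which are not reported here. The lists were counted without the members, a choice added after the data were seen.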

Additional observations from a re-analysis of the deposited data

Results flagged for a closer look

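Otx2 in WT embryoid bodies in LG on day 4 had 1 of 4 libraries, as labelled, far from the others (36.982 RPKM, with the others at 50.63, 51.319 and 52.444 RPKM). The low library was a column headed W2, label-matched, and the other column under that heading (52.444 RPKM) is contradicted. The values of 50.63 and 51.319 RPKM are both of W1, so the label-matched values compare 1 column of W2 with 1 line. A total of 16 such checks were made, and chance alone flags about 1 in 20 where libraries are independent, which columns of the same line are not. The change over days in LG differed between DKO and WT for Utf1 (2.69, day 2 to day 12), Lin28b (1.17 to day 8 and 1.89 to day 12) and Zic2 (2.25 to day 12), on the log2 scale and with the smaller fall in DKO, by the test of the difference itself in limma.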

How the results depend on the processing

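With all 42 libraries as labelled, the members called between DKO and WT were 0 on day 8 and 0 on day 12 in LG, 0 on day 8 and 1 on day 12 in HG. The comparisons of days gave 0 (WT, LG, days 4 and 2), 0 (WT, LG, days 12 and 4), 0 (DKO, LG, days 4 and 2), 1 (DKO, LG, days 12 and 4), 0 (WT, HG, days 8 and 4) and 0 (WT, HG, days 12 and 8), and genotype by day gave 0. As labelled, estimates turned negative for Otx2 (−0.87), Utf1 (−1.03) and Pou3f1 (−0.34) on day 8 and for Otx2 (−0.21), Utf1 (−0.15) and Pou3f1 (−0.30) on day 12 in LG, and for genotype by day of Otx2 (−0.72) and Pou3f1 (−1.02). In LG on days 8 and 12 the as-labelled set added only the libraries headed W2. Those had Prkaa2 at 0.416 and 0.04 RPKM, Txnip at 65.2 and 190.3 RPKM, and Utf1 at 290.8 and 334.2 RPKM. The cause of the turned signs was not tested.

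With the line as a replicate block, which uses the pairing by cell line, 4 members were called on day 8 in LG, and between glucose levels 1 in WT on day 12, 1 in DKO on day 8 and 2 in DKO on day 12. These last 3 counts with the line as a random effect were 1, 1 and 2, and quantile scaling gave 2 for DKO on day 12. Beside these and genotype by day from day 2 to day 8 (2 members, against 1), the block changed no count of members given in the report by over 1.5 times. Median-of-ratios scaling moved the median of all genes on day 12 in LG to 0.049, against 0.158.

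Leaving out each line in turn gave 0 to 1 members on day 4, 1 to 3 on day 8 and 4 to 6 on day 12 in LG, and 0 to 6 on day 8 and 4 to 7 on day 12 in HG. The days gave 0 to 4 (WT, LG, days 4 and 2), 0 to 1 (DKO, LG, days 4 and 2), 3 to 7 (WT, HG, days 8 and 4) and 0 to 6 (WT, HG, days 12 and 8), and genotype by day 0 to 5. The glucose comparisons gave 0 to 1 in WT on day 4, 0 to 1 in WT on day 12, 0 to 1 in DKO on day 8 and 0 to 2 in DKO on day 12. Single estimates in LG that turned sign, with no call on either side, ran over these fits from −0.059 to 1.085 for Otx2 and from −0.21 to 0.46 for Zic2 on day 2, from −0.21 to 0.31 for Fgf5, from −0.25 to 0.00514 for Utf1 and from −0.19 to 0.28 for Lin28b on day 4, from −0.090 to 0.63 for Otx2 and from −0.14 to 0.37 for Lin28a on day 8, and from −0.020 to 0.63 for genotype by day of Pou3f1. On day 4 in LG signs also turned for Fgf5 with the earlier-listed column alone (−0.053) and Utf1 with the later-listed one (0.039). Without W1 no comparison of WT in LG on days 8 or 12 could be made, and likewise without K3 for DKO in HG. Of the other alternatives, 656 of 672 estimates of single members kept their direction and side of the threshold.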
